A study of Arabidopsis thaliana with 4 samples.

Results

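The genes described here are those that the chloroplast's own genome contributes to the photosynthetic machinery. They were chosen by name: every probe set whose only gene in the platform annotation has a symbol beginning with psa, psb, pet or ndh, or is rbcL, atpA, atpB, atpE, atpF, atpH or atpI. The rule found 43 probe sets for 43 genes, out of 22810 probe sets on the array. They comprised 15 genes named for photosystem II, 5 of photosystem I, 6 of the cytochrome b6f complex, 10 of the NDH complex, 6 of the ATP synthase and the Rubisco gene rbcL. All 43 lay on the plastid chromosome of the RefSeq TAIR10.1 annotation, which holds 44 genes that fit the rule. The gene left out, ndhB, lies in the inverted repeat, and its probe set lists both copies.

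Levels were compared between php mutants, in which PHP (PLANT HOMOLOGOUS TO PARAFIBROMIN, a subunit of the PAF1 transcription elongation complex in the nucleus) is affected, and wild-type plants. Both genotypes were Arabidopsis thaliana grown on soil, and their above-ground tissue was taken at 14 days. The labels give neither the allele nor the accession of the plants. Each genotype had 2 Affymetrix ATH1 arrays, called I and II, and RNA of 3 independently derived samples went onto each array.

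Chloroplasts keep a small genome with genes for core subunits of the photosynthetic complexes, while the remaining subunits come from nuclear genes and are imported. The photosystems use light to drive electrons from water through the cytochrome b6f complex towards ferredoxin, the proton gradient formed on the way powers the ATP synthase, NDH returns electrons from ferredoxin to the plastoquinone pool, and Rubisco fixes carbon dioxide. A bacterial-type RNA polymerase, whose core is plastid-encoded and whose sigma factors are nuclear-encoded, transcribes most of these genes, often several at a time. The long transcripts are then cut, spliced and edited by imported proteins, so the amounts of RNA from genes of 1 unit can differ. Plastid transcripts carry no stable poly(A) tail.

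Values are log2 levels, on which a difference of 1 is a 2-fold difference, and all differences are php minus wild-type. A probe set's brightness depends on its probes as well as on its transcript, so levels of different genes are not ranked. Of the 22810 probe sets, 64 controls and the lowest 30% of the others by mean level, up to 2.64, were left out, and 15922 were tested with limma. All 43 plastid-encoded photosynthesis genes passed that filter. Their mean levels over the 4 arrays ran from 3.06 for ndhF to 14.89 for atpB, and 31 genes were at 10 or above on every array. With 2 arrays against 2, the smallest two-sided p of an exact permutation test is 0.333, and the p-values here come instead from limma's model of the spread across probe sets.

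Of the 43 genes, 0 passed an adjusted p under 0.05 in limma, where 5 of all 15922 probe sets passed, or 0.0314%. The lowest adjusted p was 0.123, for psbF. At an unadjusted p under 0.05 there were 7 of the 43, or 16.3%, while 24.2% of all probe sets tested lay there. All 7 had higher means in php, and 11.3% of all probe sets were under 0.05 in that direction. These genes were psbE and psbF of photosystem II, psaC of photosystem I, petN of cytochrome b6f, atpH and atpI of the ATP synthase, and rbcL. Both php arrays were above both wild-type arrays for 18 of the 43 genes, or 41.9%, against 33.2% of all probe sets. Both php arrays were below both wild-type arrays for 1 gene, petB, or 2.33%, against 27.4% of all probe sets. The genotypes overlapped for the other 24 genes. The php mean was higher for 34 genes and lower for 9, with a median difference of 0.14, while the median over all probe sets tested was 0.01. Differences ran from -0.16 for psbH to 0.83 for petD, and the next largest were those of atpI, psbB and petN. Without wild-type II the differences of petD and psbB were 0.36 and 0.28. In tissue extracts such as these, a change in the number of chloroplast-bearing cells and a change in plastid RNA per cell cannot be told apart.

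**Figure D1:**
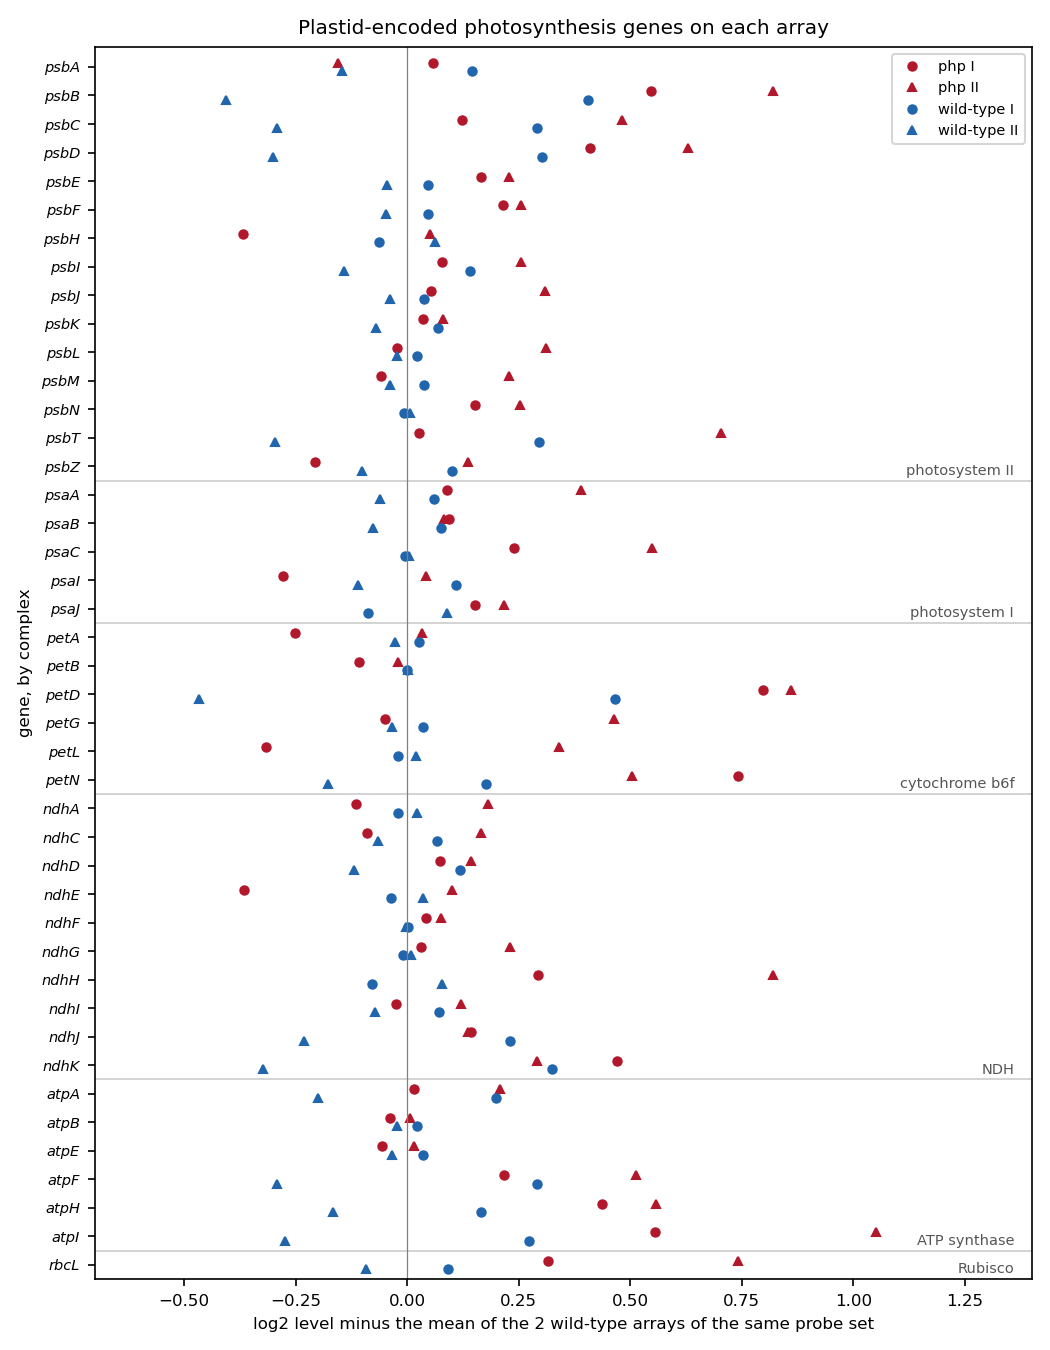
Each row is 1 of the 43 genes, grouped by complex, and the horizontal axis is its log2 level on each array minus the mean of its 2 wild-type arrays (red php, blue wild-type, circles replicate I, triangles replicate II). Blue triangles mostly lie left of blue circles and red triangles mostly right of red circles, and 18 rows have both red points to the right of both blue points.

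Arrays of the same genotype differed as well. Wild-type II was below wild-type I for 33 of the 43 genes, or 76.7%, against 54.5% of all probe sets tested. In php it was array II that was brighter, above php I for 38 of the 43 genes, or 88.4%, against 41.2% of all probe sets. When each gene was set against its own mean over the 4 arrays, the median deviation was -0.01 on php I, 0.16 on php II, 0.03 on wild-type I and -0.13 on wild-type II. The median difference of 0.14 between genotypes thus compares with a within-genotype SD of 0.12 for the median deviation. Leaving out php II reduced the median to 0.06, and leaving out wild-type II also left 0.06, while it was 0.23 without php I and 0.22 without wild-type I. At an unadjusted p under 0.05 there were 2 of the 43 without wild-type II, beside 12.01% of all probe sets, and 14 of the 43 without php I, beside 19.8% of all probe sets.

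Rubisco takes its large subunit, which holds the active site, from rbcL. Its probe set read 9.80 and 10.23 on php I and II, against 9.58 and 9.40 on wild-type I and II. Neither php array overlapped the wild-type arrays, although the php arrays lay further from each other than the wild-type arrays did. The php mean exceeded that of wild-type by 0.53 (SE 0.17, 95% confidence interval 0.053 to 1.003, limma unadjusted p = 0.037, adjusted p = 0.184), or 1.44-fold. It was 0.31 without php II and 0.74 without php I. The list of nuclear Rubisco genes was represented by RCA, the activase, which was at 14.54 and 14.48 in php, against 14.54 on both wild-type arrays.

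With rbcL, described above, set aside, the ATP synthase had the highest median difference of the 5 complexes, 0.24, and also the widest spread within genotype, an SD of 0.22 for the complex's median deviation. Its catalytic beta subunit, alpha subunit and epsilon subunit are encoded by atpB, atpA and atpE. The genes atpF, atpH and atpI encode a peripheral stalk subunit, the proton-carrying ring subunit and the membrane a subunit. The membrane subunit gene atpI was at 8.15 and 8.65 in php, against 7.87 and 7.33 in wild-type. This difference of 0.80 (SE 0.27, 95% confidence interval 0.06 to 1.55, limma adjusted p = 0.193) was 1.74-fold, with no overlap between genotypes. For atpH the arrays read 12.67 and 12.80 in php, against 12.41 and 12.07 in wild-type, again without overlap. Its difference was 0.50 (SE 0.13, limma adjusted p = 0.150). Without wild-type II these differences were 0.53 for atpI and 0.33 for atpH.

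The remaining ATP synthase genes overlapped between genotypes. The peripheral stalk gene atpF differed by 0.36 with a standard error of 0.23. The alpha subunit gene atpA was at 13.69 and 13.89 in php, against 13.88 and 13.48 in wild-type, so that wild-type II alone stood low, and the difference was 0.11, or -0.09 without that array. The catalytic subunit gene atpB was nearly the same on all arrays, at 14.86 and 14.91 in php, against 14.92 and 14.88 in wild-type. Its partner atpE, which shares a transcript with it, was at 14.55 and 14.63 in php, against 14.65 and 14.58 in wild-type. The differences of atpB and atpE were -0.02 each, with 95% confidence intervals of -0.13 to 0.10 and -0.16 to 0.12. All 6 ATP synthase genes were lower on wild-type II than on wild-type I, and without wild-type II the median difference of the complex was 0.02, with 0.48 without wild-type I.

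Photosystem II had a median difference of 0.18 over its 15 genes, 12 with a higher and 3 with a lower php mean. At its centre, D1 and D2, the products of psbA and psbD, bind the pigments and cofactors of charge separation, and D1 is known for its rapid light-driven turnover. The psbA probe set was at 12.94 and 12.73 in php, against 13.03 and 12.74 in wild-type. Both replicates II were thus lower than both replicates I, and the genotypes overlapped, with a difference of -0.05 (SE 0.13). The psbD levels were 11.14 and 11.36 in php, against 11.04 and 10.43 in wild-type. They did not overlap, yet the gap of 0.60 between the wild-type arrays exceeded the difference of 0.52 between genotypes (SE 0.23, limma adjusted p = 0.267). The difference was 0.22 without wild-type II and 0.82 without wild-type I.

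The inner antenna proteins CP47 and CP43 are encoded by psbB and psbC. The psbB levels were 11.55 and 11.82 in php, against 11.40 and 10.59 in wild-type, the largest difference in this complex at 0.68 (SE 0.31, 95% confidence interval -0.17 to 1.53, limma adjusted p = 0.268). Wild-type II stood 0.81 below wild-type I, so without it the difference was 0.28, while it was 1.09 without wild-type I. The psbC levels overlapped between genotypes, at a difference of 0.30 (SE 0.25) that was 0.01 without wild-type II.

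Cytochrome b559, a heme protein of the reaction centre, is formed by the products of psbE and psbF, and these genes were the most evenly measured of the 7 with a low unadjusted p. The psbF levels were 13.58 and 13.62 in php, against 13.41 and 13.31 in wild-type, a difference of 0.24 (SE 0.05, 95% confidence interval 0.09 to 0.38, limma unadjusted p = 0.010, adjusted p = 0.123). The psbE levels were 12.19 and 12.25 in php, against 12.07 and 11.98 in wild-type, a difference of 0.20 (SE 0.05, limma adjusted p = 0.156). Both genes separated the genotypes, at 1.18-fold and 1.15-fold. With any 1 array left out, psbF stayed between 0.19 and 0.28 and psbE between 0.15 and 0.24.

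Small membrane subunits made up most of the rest. The phosphoprotein gene psbH had the lowest difference of all 43 genes, at 12.62 and 13.04 in php, against 12.93 and 13.05 in wild-type. Its difference of -0.16 (SE 0.16) was 0.05 without php I, the array that stood apart. psbT, psbJ, psbI, psbL, psbM, psbK and psbZ differed by 0.37, 0.18, 0.17, 0.14, 0.08, 0.06 and -0.03, and of these 7 only psbJ had both php arrays above both wild-type arrays. The psbN gene, whose product is known from tobacco as an assembly factor and not a subunit, was at 7.46 and 7.57 in php, against 7.31 and 7.32 in wild-type, without overlap (difference 0.20, limma adjusted p = 0.226).

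Photosystem I had a median difference of 0.18, and 4 of its 5 genes were higher on both php arrays, as were 33.2% of all probe sets tested. Its core is a pair of large proteins encoded by psaA and psaB, which bind most of its chlorophyll. The psaA levels were 12.55 and 12.85 in php, against 12.52 and 12.40 in wild-type, and those of psaB were 14.02 and 14.01 in php, against 14.00 and 13.85 in wild-type. Php I exceeded wild-type I only narrowly for both genes, and the differences were 0.24 (SE 0.12) and 0.09 (SE 0.07), with 0.09 for psaA without php II and 0.01 for psaB without wild-type II.

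The stromal iron-sulfur subunit PsaC, which passes electrons towards ferredoxin, had the largest difference in photosystem I. Its gene was at 10.72 and 11.03 in php, against 10.48 and 10.49 in wild-type, where the arrays nearly coincided. The difference was 0.39 (SE 0.12, 95% confidence interval 0.07 to 0.72, limma unadjusted p = 0.028, adjusted p = 0.168), or 1.31-fold, and it was 0.24 without php II and 0.55 without php I. The small subunit gene psaJ differed by 0.18 without overlap. Its counterpart psaI went the other way, at 11.64 and 11.96 in php, against 12.03 and 11.81 in wild-type, and overlapped (difference -0.12, SE 0.14).

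Cytochrome b6f held both the largest difference of all 43 genes and the 1 gene lower on both php arrays. Cytochrome f, cytochrome b6 and subunit IV, encoded by petA, petB and petD, carry out its electron and proton transfer, and petG, petL and petN encode small subunits. The petD probe set was at 6.78 and 6.84 in php, against 6.45 and 5.52 in wild-type. The php arrays matched closely, whereas wild-type II lay 0.93 below wild-type I, and the difference of 0.83 (SE 0.34, 95% confidence interval -0.12 to 1.78, limma adjusted p = 0.241) was 0.36 without wild-type II. The petB levels were 14.27 and 14.36 in php, against 14.38 on both wild-type arrays, a difference of -0.06 (SE 0.05, limma adjusted p = 0.449).

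The petN levels were 7.89 and 7.65 in php, against 7.33 and 6.97 in wild-type. They did not overlap, and the difference was 0.62 (SE 0.17, 95% confidence interval 0.16 to 1.09, limma unadjusted p = 0.020, adjusted p = 0.153), or 1.54-fold. Here php I was brighter than php II, unlike most genes. The petA levels were 13.04 and 13.32 in php, against 13.32 and 13.26 in wild-type, so that php I alone stood low (difference -0.11, SE 0.11). The small subunit genes petG and petL differed by 0.21 and 0.01, and php II was above php I by 0.51 and 0.66 for them, more than their differences between genotypes. The median difference of the complex was 0.11, and it was -0.08 without php II and 0.40 without php I.

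NDH, related to respiratory complex I, had the lowest median difference of the 5 complexes, 0.08, although 9 of its 10 genes had a higher php mean. The exception was ndhE, which encodes a membrane subunit and was at 10.18 and 10.64 in php, against 10.50 and 10.58 in wild-type (difference -0.13, SE 0.17). The largest difference was that of ndhH, a subunit of the arm in the stroma, at 9.27 and 9.79 in php, against 8.90 and 9.05 in wild-type. These did not overlap, and the difference was 0.56 (SE 0.20, 95% confidence interval -0.00056 to 1.12, limma adjusted p = 0.207). It was 0.29 without php II and 0.82 without php I. The genes of the other stromal arm subunits ndhK, ndhJ and ndhI differed by 0.38, 0.14 and 0.05, and those of the membrane subunits ndhG, ndhD, ndhF, ndhC and ndhA by 0.13, 0.11, 0.06, 0.04 and 0.03. Besides ndhH, only ndhG and ndhF had both php arrays above both wild-type arrays. The ndhF probe set was at 3.08 and 3.11 in php, against 3.04 and 3.03 in wild-type, not far above the filter at 2.64, and its size of difference is not measured well.

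The 5 complexes other than Rubisco, which has the 1 gene rbcL at 0.53, were set beside each other by their medians. Their median differences ran from 0.08 for NDH through 0.11 for cytochrome b6f and 0.18 for both photosystems to 0.24 for the ATP synthase. The widest gap among these 5, ATP synthase minus NDH, was 0.16. On single arrays, the median deviation of the ATP synthase minus that of NDH was 0.01 on php I and 0.11 on php II, against -0.00 on wild-type I and -0.24 on wild-type II. The gap therefore lay mainly on wild-type II, and without that array both complexes had a median of 0.02. Of the 10 pairs of complexes, 6 had a gap that overlapped between genotypes. The other 4 were ATP synthase minus NDH, ATP synthase minus photosystem II, and each photosystem minus NDH. Of all probe sets, 60.5% did not overlap in their own levels, which is a different measure from a gap between medians. The 10 gaps are built from the same 5 medians on each array and are not independent. Photosystem I minus NDH was 0.05 on php I and 0.00 on php II, against -0.10 on wild-type I and -0.03 on wild-type II. Photosystem II minus NDH was 0.01 and 0.05 on the php arrays, against 0.00 and -0.04 on the wild-type arrays. No gap between complexes was tested. Cytochrome b6f stood lowest of the 5 on php I, at a median deviation of -0.11, and highest on php II, at 0.26. Photosystem I had the smallest within-genotype SD of the 5, 0.05, and its median deviations were 0.04 and 0.12 on the php arrays, against -0.06 and -0.12 on the wild-type arrays.

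**Figure D2:**
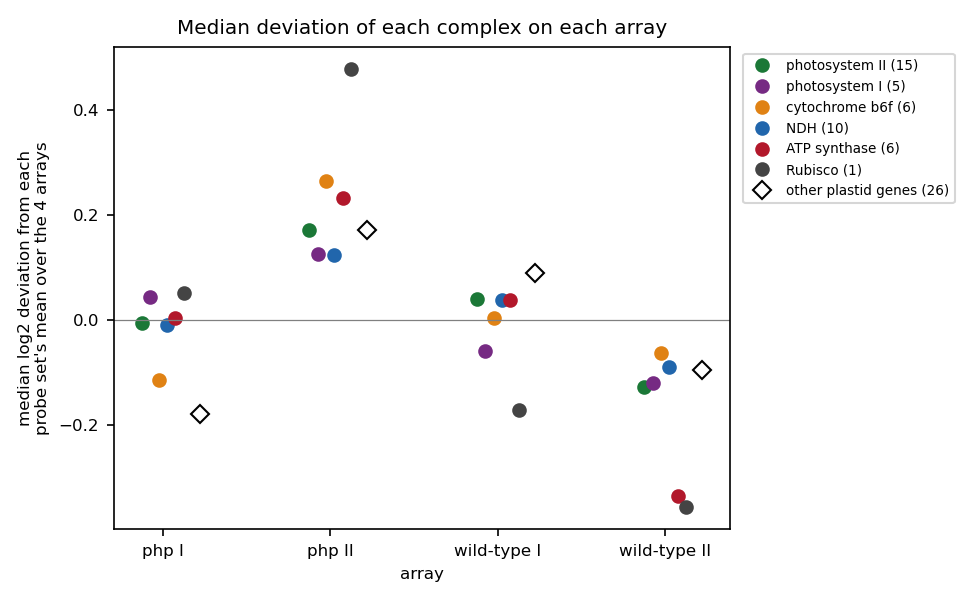
The vertical axis is the median log2 deviation of a complex's genes from their own mean over the 4 arrays, for each array along the horizontal axis. Filled points are complexes, open diamonds the other plastid genes, and the number of probe sets is given in brackets. On php II all groups lie above 0 and on wild-type II all lie below 0, while on php I the other plastid genes lie at -0.18, below every complex.

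Among the 43 genes, dimmer probe sets differed more between the genotypes. The 10 genes with a mean level under 10 had a median difference of 0.45, and 8 of them were higher on both php arrays, as were 34.0% of all probe sets at these levels. Between 10 and 12 the median over 10 genes was 0.22, between 12 and 13 it was 0.17 over 11 genes, and at 13 or above it was 0.05 over 12 genes. Over all probe sets tested in these ranges the medians were 0.01, -0.02, -0.05 and -0.02. Across the 43 genes, which share the same 4 arrays, Spearman's rho between mean level and difference was -0.53, and -0.09 across all probe sets tested. The largest value on any array was 15.56, and the brightest genes lay within 1 log2 unit of it. Whether the brightest probe sets can show a difference as fully as dim ones was not tested. Spike-in controls added at hybridization also read higher in php, all 18 probe sets on both arrays, with a median difference of 0.35. Their differences ran from 0.22 for a cre probe set at a mean level of 13.12 to 0.51 for a bioB probe set at 6.47. The part of such a shift in the differences of the 43 genes was not tested.

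**Figure D3:**
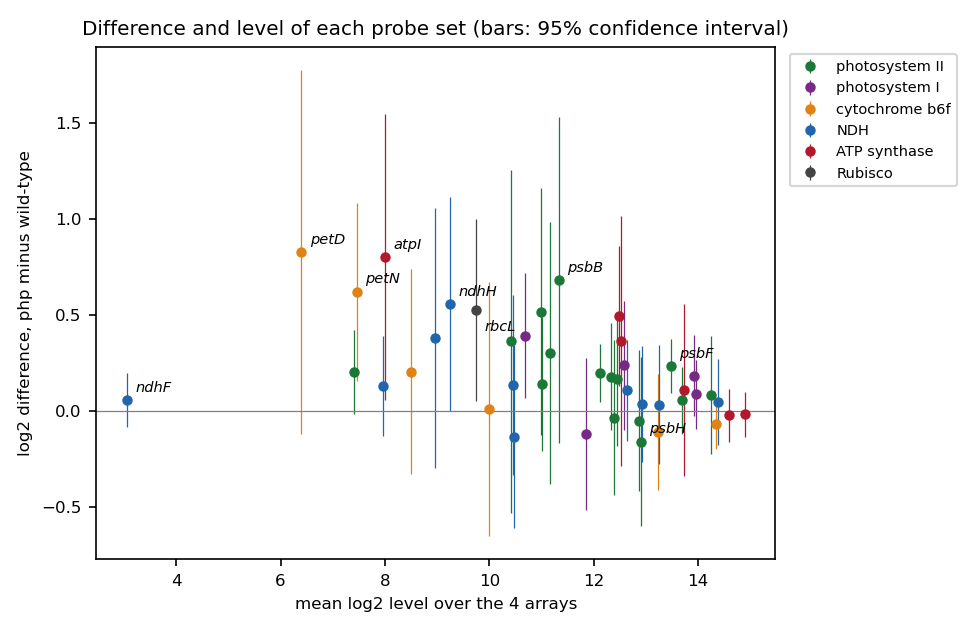
Each point is 1 gene, with its mean log2 level over the 4 arrays on the horizontal axis, its log2 difference on the vertical axis, and the 95% confidence interval from limma as a bar, coloured by complex. Apart from ndhF at 3.06, points spread up to 0.83 on the left and narrow towards 0 on the right, where atpB at 14.89 lies at -0.02.

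Genes of the same transcription unit, taken from textbook knowledge and checked for order in the TAIR10.1 annotation, did not always differ alike. The psbE, psbF, psbL and psbJ genes, which share a transcript, had differences within 0.09 of each other, from 0.14 to 0.24. In the psbB unit, psbB, psbT, psbH, petB and petD differed by 0.68, 0.37, -0.16, -0.06 and 0.83, a range of 0.99, with the highest values at both ends. Along atpI, atpH, atpF and atpA the differences were 0.80, 0.50, 0.36 and 0.11, in the order of the genes. Within the ndhH unit, ndhH at 0.56 and psaC at 0.39 stood above ndhA, ndhI, ndhG, ndhE and ndhD, which lay between -0.13 and 0.13. In the psbD unit psbD, psbC and psbZ differed by 0.52, 0.30 and -0.03. In all, 11 units were examined, and the rest had narrower ranges than these last 4. The range was 0.004 for atpB and atpE, 0.009 for psaI and petA, and 0.11 for psbK and psbI. It was 0.15 for psaA and psaB, 0.20 for petL, petG and psaJ, and 0.34 for ndhC, ndhK and ndhJ. Pairs of members with no other protein-coding gene between them, whether of the same unit or not, numbered 33. The median gap between their differences was 0.22, and over all 903 pairs it was also 0.22. Within the 4 units plotted, the 95% confidence intervals of all genes overlap, and differences between genes were not tested.

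**Figure D4:**
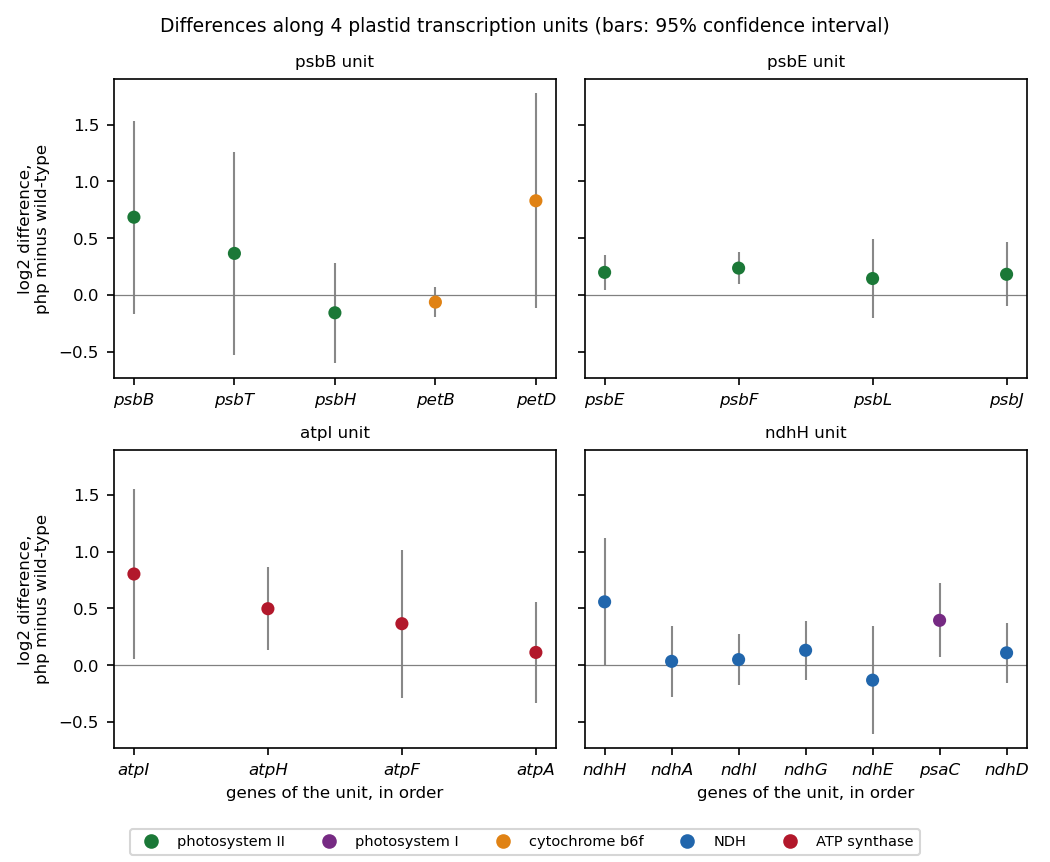
Log2 differences of the genes along 4 transcription units, in gene order on the horizontal axis, with 95% confidence intervals from limma as bars and points coloured by complex. The psbE unit is level, between 0.14 and 0.24, the atpI unit descends, and in the psbB and ndhH units neighbouring genes lie apart.

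The other plastid-encoded genes differed between arrays in a similar way, with a median difference between genotypes nearer 0. Of these 26 genes, 25 were lower on wild-type II than on wild-type I, and all 26 were higher on php II than on php I. Their median difference was 0.02. Of the 26, 3 were higher on both php arrays, 1 was lower on both and 0 had an unadjusted p under 0.05 in limma, beside 33.2%, 27.4% and 24.2% of all probe sets. Median differences were 0.02 for 15 ribosomal protein genes, 0.05 for 4 genes of the plastid RNA polymerase and 0.02 for 7 others. Among the polymerase genes, rpoB was at 7.19 and 7.66 in php, against 7.18 and 6.95 in wild-type, and rpoA at 12.70 and 12.91 in php, against 13.24 and 13.01 in wild-type (difference -0.32, limma adjusted p = 0.215). The photosynthesis genes minus the other plastid genes, by median deviation, stood at 0.17 on php I and -0.01 on php II, against -0.06 on wild-type I and -0.03 on wild-type II. Php I was thus the array on which these groups parted, and the separation was not tested.

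Few nuclear genes listed with the same complexes could be named. Of 49 nuclear loci listed, 10 had a probe set named here, among them RCA, which encodes the activase and not a subunit of Rubisco. All 10 were tested and 0 had an unadjusted p under 0.05 in limma, beside 24.2% of all probe sets. Their median difference was -0.01, from -0.06 for PSBW of photosystem II to 0.16 for ATPC2, a gamma subunit of the chloroplast ATP synthase. Their median level was 13.93, and plastid photosynthesis genes at 13 or above had a median difference of 0.05. The NDH subunit genes NdhN and NdhL differed by 0.07 and -0.04, and the photosystem I genes PSAN and PSAE-1 by -0.02 and -0.01. Of 30 loci for sigma factors, other plastid transcription proteins and RNA processing factors, 2 had a named probe set and 1 was tested, AT5G42310, at a difference of 0.00.

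Technical controls and tissue markers were read beside these values. The 5 measured shoot markers, including RCA and LHCB4.1, were at 13.52 to 14.53 on average, with a median difference of -0.03. Among them RCA, PSBY and PSBW also belong to the nuclear genes above, so the medians of both groups are not separate readings. Of these 5, 1 was higher and 3 were lower on both php arrays, beside 33.2% and 27.4% of all probe sets. The 3 flower markers and the root hair gene EXPA7 were below the filter. The root marker PYK10, also expressed in young shoots, was at 12.31 and 12.17 in php, against 11.67 and 11.87 in wild-type. The control probe set for 25S rRNA, which like plastid RNA lacks a poly(A) tail, was at 6.30 and 6.97 in php, against 5.40 and 5.50 in wild-type. The part of these controls in the differences of the plastid genes was not tested. PHP itself was not analysed here, and the labels of the arrays could not be checked against it.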

How the data were processed

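The deposited table holds log2 values for 22810 probe sets on 4 ATH1 arrays. The authors made them from the scanner files with GCRMA, which corrects background and normalizes the arrays together, per the series' design text. The submitters' processing notes also name MAS5 without saying what for. Versions: not given in the sources used here. No further normalization was applied. Genes were named from the platform annotation, which lists 14016 probe sets, 503 of them with several genes, and leaves 8794 unnamed. RefSeq TAIR10.1 gave chromosome and gene order only. limma 3.58.1 in R 4.3.3 (lmFit, eBayes with a variance trend, two-sided, Benjamini-Hochberg over 15922 probe sets) compared php with wild-type, and the procedure was tested on simulated data. Figures used matplotlib 3.10.9 in Python 3.11.15. Arrays have no read depth, so their number limits the precision, and p-values measure the spread between these arrays. Replicate numbers in the labels name no shared batch, so the fit has no block.

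Every gene of the rule is named. Those with the largest difference in each direction per complex, those at an unadjusted p under 0.05 and core subunits are given per array, and list genes are those with the largest differences. Members, lists and complexes were chosen with earlier results of these data known. The ranges of level, the transcription units and the comparison of replicates I and II were chosen after the values were seen. Alternatives were other filters, no variance trend, quantile normalization, median centring, a replicate block, an adjusted p under 0.1 and leaving out each array.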

Additional observations from a re-analysis of the deposited data

Results flagged for a closer look

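Among the Affymetrix controls, which were left out of the tests, both rRNA controls were brighter in php than in wild-type. The 25S rRNA control differed by 1.18 on the log2 scale, with php averaging 6.64 ± 0.48 and wild-type 5.45 ± 0.07 (SD, n = 2 arrays each). The 5S rRNA control differed by 1.09, with php I and II at 5.05 and 5.59 and wild-type I and II at 4.38 and 4.09. Like most plastid photosynthesis genes, both controls were brighter on php II than on php I. In wild-type, the 5S control was lower on array II, as most of those genes were, but the 25S control was higher there, at 5.50 against 5.40. The part of both controls in the differences was not tested.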

How the results depend on the processing

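At an adjusted p under 0.05, limma called no plastid photosynthesis gene under any alternative, and with the filter as used none passed 0.1 either. With the lowest 50% of probe sets left out, 3 were under 0.1, psbF at 0.083, atpH at 0.096 and petN at 0.0999. With any 1 array left out, the count at an unadjusted p under 0.05 ranged from 2 to 14, beside 12.01% to 25.2% of all probe sets, genes higher in php on all remaining arrays from 18 to 35 and genes lower from 2 to 14, beside 41.4% to 44.4% and 37.0% to 39.4% of all probe sets. Quantile normalization left 0 genes lower on both php arrays and put ndhF at -0.035 and atpE at 0.022. Leaving out arrays, medians ranged from 0.057 to 0.25 for photosystem II, 0.094 to 0.22 for photosystem I, -0.079 to 0.40 for cytochrome b6f and 0.017 to 0.48 for the ATP synthase. Of the 43 genes, 19 changed sign in at least 1 of these fits: psbA (-0.19 to 0.097), psbH (-0.37 to 0.051), psbK (-0.011 to 0.13), psbL (-0.023 to 0.31), psbM (-0.058 to 0.23), psbZ (-0.21 to 0.14), psaI (-0.28 to 0.043), petA (-0.25 to 0.034), petG (-0.050 to 0.46), petL (-0.32 to 0.34), ndhA (-0.11 to 0.18), ndhC (-0.090 to 0.17), ndhD (-0.010 to 0.23), ndhE (-0.36 to 0.0999), ndhI (-0.024 to 0.12), ndhJ (-0.091 to 0.37), atpA (-0.087 to 0.31), atpB (-0.039 to 0.0064) and atpE (-0.056 to 0.015). The 7 genes at an unadjusted p under 0.05 kept their sign in each. This had to be so, since both their php arrays were above both wild-type arrays. A lone remaining array is assumed to vary like the other genotype. The causes were not tested. In a fit with a replicate block, 0 genes were called and 7 had an unadjusted p under 0.05, as without it; deviations of same-numbered arrays correlated at 0.52 over all probe sets and 0.13 over the 43 genes. The 2 arrays per genotype limit every statement.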

Other observations

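Transcripts of the other organelle were read on the same arrays. Of 22 probe sets named for mitochondrial genes of respiration and cytochrome maturation, 10 passed the filter, with mean levels from 2.65 to 7.38. Of these, 1 was higher on php II than on php I, beside 41.2% of all probe sets, and all 10 were lower on wild-type II than on wild-type I, beside 54.5%. Their median difference was 0.05, and 5 were higher and 1 lower on both php arrays, beside 33.2% and 27.4% of all probe sets. Those higher belonged to nad7, nad2, ccb452 and, more than once, nad1. They were dim, at mean levels of 2.65 to 4.28 where the filter was at 2.64, so the size of their differences is not measured well. The lower one, ccb382, a gene of cytochrome c maturation, was at 5.80 and 5.60 in php, against 6.65 and 6.24 in wild-type, a difference of -0.74 (limma unadjusted p = 0.015, adjusted p = 0.139). No hypothesis was tested on these values.

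Spike-in controls added at hybridization (18 probe sets) had a median difference of 0.35. All 18 were higher on both php arrays, beside 33.2% of all probe sets tested. For the 24 spike-in probe sets that are added as polyadenylated RNA the median was -0.08, and 0 were higher on both php arrays.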
